A study of Mus musculus with 19 samples.

Results

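Alveolar macrophages are the resident phagocytes of the airspace, where they take up surfactant, particles and dead cells. Their identity is set by GM-CSF and TGF-beta, which act through the lipid-sensing nuclear receptor PPARG, and they carry much of the machinery of fat uptake and storage beside scavenger receptors. The data described here are those of 10 genes that mouse alveolar macrophages express: the transcription factor gene Pparg, the surface receptor genes Marco, Mrc1, Olr1 and Itgax, the secreted lectin gene Chil3, the lipid-handling genes Fabp1 and Cidec, the proton pump subunit gene Atp6v0d2, and Krt79. Krt79 encodes a type II keratin, best known from the ducts of hair follicles and sebaceous glands, whose transcript is also found in these macrophages. The genes were chosen by name with dose results of these data already known, so their differences between dose groups are given as a description with standard errors (SE) and without a test.

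All probes whose RefSeq accession in the scanner files maps to 1 of the 10 symbols were taken. The 10 genes, of 20660 gene symbols on the array, came to 12 probes of 55681, since Cidec and Atp6v0d2 had 2 probes each, and all 12 were among the 30999 probes that passed the filter on dim signals. Lung gene expression was measured in 18 male MutaTMMouse animals of about 12 weeks, a transgenic strain made for mutation assays that every group shared. The mice were gavaged daily for 28 days with olive oil (D0, 5 mice) or with an 8PAH mixture, that is 8 polycyclic aromatic hydrocarbons, in the same oil at 15 (D1, 4 mice), 30 (D2, 5 mice) or 60 mg/kg-bw/day, counted in benzo[a]pyrene equivalents (D3, 4 mice), and lungs were taken 72 hours after the last dose, with RNA drawn from random sections. Each value is a log2 ratio of the red signal of lung RNA over the green signal of a reference RNA pooled from cell lines, and mouse 35 of D3, hybridized to 2 arrays, counts once as their mean. The lung tissue was not sorted into cell types, so fewer macrophages and less RNA per macrophage cannot be told apart.

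The defining markers of the cell type were present in the tissue. Siglecf, Ear1, Ear2, Fabp4, Car4, Mertk and Adgre1 were well above background in the red channel in all 18 mice, as were the epithelial genes Sftpc, Scgb1a1 and Ager. Markers of other sources were present as well. The neutrophil genes S100a8, S100a9 and Csf3r, the monocyte and interstitial macrophage genes Ccr2, Cx3cr1, C1qa and C1qb, the dendritic cell genes Flt3, Zbtb46, Clec9a and Cd209a, the adipocyte gene Cfd, the intestinal gene Fabp2 and the skin keratins Krt10 and Krt14 were well above background in all 18 mice. Adipoq was so in 17 mice, Plin1 and Vil1 in 15, Krt5 in 14, Alb in 10, Apoa1 in 4, the brown fat gene Ucp1 in 3, the sebaceous gene Awat2 in 1 and the dendritic cell gene Xcr1 in 0. The 10 genes were well above background in red in every mouse with their brightest probe. The arrays lay on 3 slides, each with all 4 groups. The array labelled D2 mouse 23 carries a number that falls among the D1 mice, and the numbers of animals per dose that the methods of the study list would also place it there. It was kept in D2 as labelled, and its dose is in doubt. The array's place on its slide followed the dose, so place and dose cannot be told apart in these ratios.

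The genes differed in direction and in course. At D3, 3 of the 12 probes were called lower than in D0 (Krt79, Fabp1 and the brighter probe of Cidec), against 1.23% of all probes tested, and 0 were called higher, against 1.21%. A probe was called when its limma adjusted p did not exceed 0.05 and it differed by 1.5-fold or more, and the members' share is not read as a result, since their choice drew on this contrast. No member was called at D1 (0 of 12, against 1.06% of all probes) or at D2 (0 of 12, against 0.626%). On the adjusted p alone, 4 of 12 probes passed at D3 (Pparg joining the others, against 12.4% of all probes) and 1 at D2 (Itgax, against 2.09%). The median log2 change over the 10 genes was -0.03 at D1, -0.42 at D2 and -0.39 at D3, beside 0.01, 0.00 and 0.00 over all probes. At D2, 9 of the 10 genes had a mean below that of D0, beside 51.1% of all probes, and at D3 7 did, beside 50.5%. The count at D2 was 8 with another background correction, with processed signals and with the red channel alone. At D3 it was 8 with the red channel alone.

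**Figure D1:**
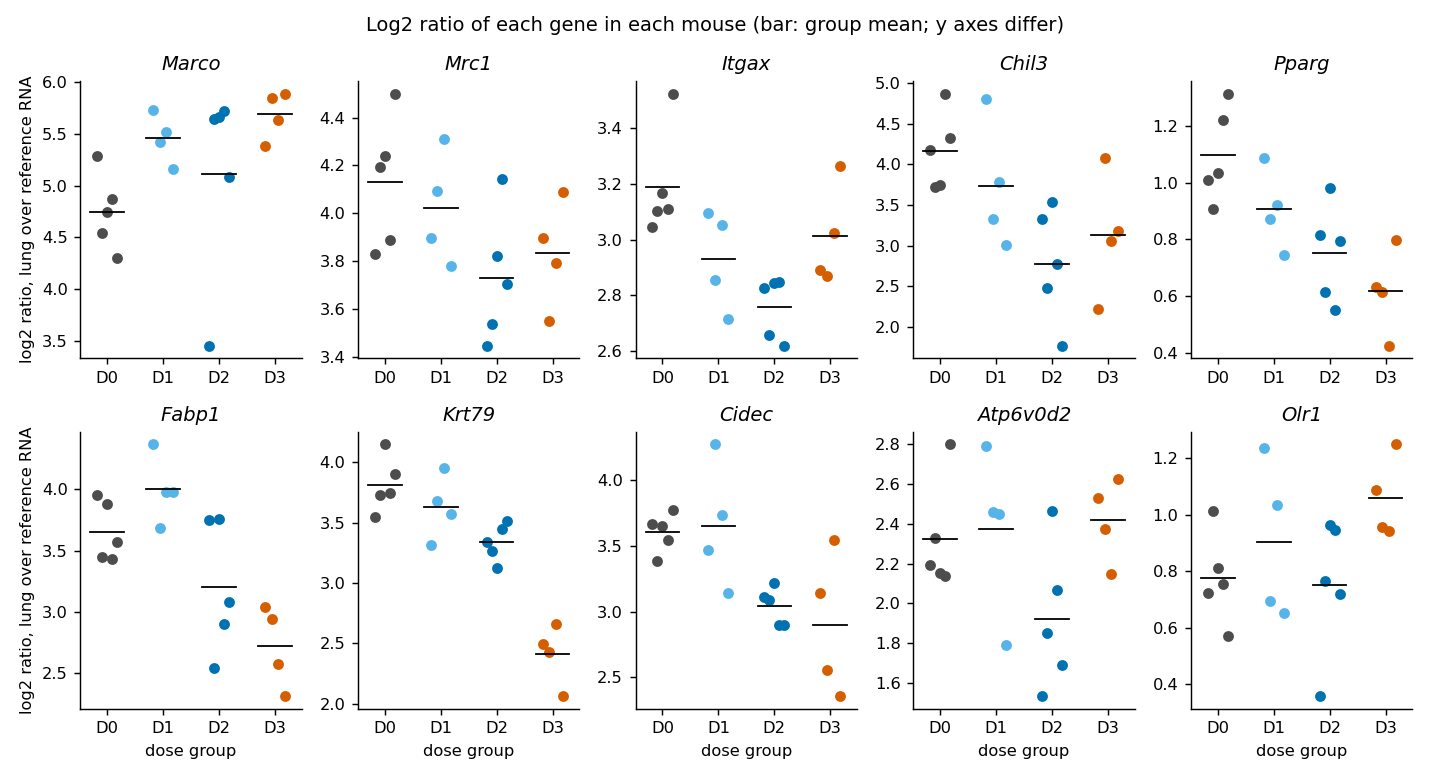
Log2 ratio of lung over reference RNA (y axis, a scale of its own in each panel) for the brightest probe of each gene, by dose group (x axis); points are mice and bars are group means. All 4 D3 mice lie below all D0 mice for Krt79, Fabp1 and Pparg, and all 4 lie above all D0 mice for Marco.

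Krt79 had the largest difference from D0 of the 10 genes at D3. Its log2 ratio (probe accession NM_146063) was 3.55, 3.73, 4.15, 3.75 and 3.90 in the D0 mice and 3.31, 3.68, 3.95 and 3.57 in the D1 mice. In the D2 mice it was 3.34, 3.26, 3.12, 3.45 and 3.52, and in the D3 mice 2.49, 2.43, 2.66 and 2.06. The D1 mice thus overlapped the D0 mice, all 5 D2 mice lay just under the lowest D0 mouse, and all 4 D3 mice lay far below both. The log2 difference from D0 was -0.19 ± 0.14 (SE, n = 4) at D1 (0.09 with median centring), -0.48 ± 0.13 (SE, n = 5) at D2 and -1.40 ± 0.14 (SE, n = 4) at D3, the last a 2.645-fold lower level. From D2 to D3 the difference was -0.93 ± 0.14 (SE), and Krt79 was the 1 member called in that step, against 0.106% of all probes. Its D3 mice did not overlap the D2 mice either, which held for 1 of 12 member probes and 1.83% of all probes in the lower direction.

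Within slides the D3 mean of Krt79 minus its D0 mean was -1.18, -1.61 and -1.79 on slides 1, 2 and 3. Slide 3 held 1 D0 array and 1 D3 array, the latter a repeat of mouse 35 that is also on slide 2, so for every gene the values of slides 2 and 3 share that mouse. With the red channel alone, without the reference, the log2 difference at D3 was -1.63, and the reference channel itself differed by -0.27 between D3 and D0 at this probe. The arrays of mouse 35 read 2.01 and 2.11. With median centring in place of loess the difference at D3 was -1.18 and was not called, and that at D2 was -0.24.

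The lipid-handling genes Fabp1 and Cidec were lower at D3 too, with other courses. Fabp1 encodes a cytosolic carrier of fatty acids that is abundant in liver and intestine. Its log2 ratio (NM_017399) was 3.95, 3.44, 3.88, 3.43 and 3.57 in D0, 4.37, 3.68, 3.98 and 3.98 in D1, 3.75, 2.54, 3.76, 2.90 and 3.08 in D2, and 3.04, 2.94, 2.58 and 2.31 in D3. Of the D1 mice, 3 of 4 lay above the D0 mice, the D2 mice split into a pair near the D0 level and 3 below it, and all D3 mice lay below D0. The log2 difference was 0.35 ± 0.22 (SE) at D1, -0.45 ± 0.21 at D2 and -0.94 ± 0.22 at D3, where slides 1, 2 and 3, with mouse 35 on both of the last, gave -0.71, -1.20 and -1.27. Of 5 other liver and intestine genes tested, 0 were called in either direction at D3: Fabp2, the intestinal carrier of the same family, differed by 0.14 (limma adjusted p = 0.61).

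Cidec encodes a lipid droplet protein that lets droplets grow by fusion, and it is expressed strongly in fat cells. The log2 ratio of its brighter probe (NM_178373) was 3.67, 3.38, 3.65, 3.54 and 3.77 in D0, 3.47, 4.27, 3.73 and 3.14 in D1, 3.11, 3.09, 3.21, 2.90 and 2.90 in D2, and 3.14, 2.55, 3.54 and 2.36 in D3. All D2 mice lay below D0 and close together, whereas 1 of the 4 D3 mice reached into the D0 range. The arrays of mouse 35 read 2.56 and 2.16, a gap of 0.40 that was wider than the 95th percentile over all probes (0.355). The log2 difference was 0.05 ± 0.21 (SE) at D1, -0.56 ± 0.20 at D2 and -0.70 ± 0.21 at D3. From the signals as processed by the scanner software, the D1 difference was -0.64. The call at D3 was lost when any of D0 mice 1, 3, 4 and 5 or D3 mice 32 and 35 was left out, with differences of -0.69, -0.69, -0.72, -0.66, -0.59 and -0.52. The second probe of Cidec was dimmer (mean red signal 129 in D0, against 912 for the first) and was well above background in 4 of 5 D2 mice and 2 of 4 D3 mice. It gave 0.40 ± 0.18 (SE) at D1, -0.28 ± 0.17 at D2 and -0.10 ± 0.18 at D3, against -0.70 for the brighter probe there. From the signals as processed by the scanner software, these D3 differences were -0.49 and -0.79.

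Fat cell genes varied widely between the pieces of lung, and Cidec was high in some of the same mice. The mean log2 ratio of 8 adipocyte genes, among them Adipoq, Plin1 and Cfd, ran from 0.793 to 3.10 over the mice, and none of the 8 was called at any dose. D1 mouse 22 had the highest adipocyte mean (3.10) and the highest value of both Cidec probes (4.27 and 1.43). In D3 the adipocyte mean was 1.90, 1.16, 2.53 and 0.793 in mice 31, 32, 34 and 35, and Cidec had the same order (3.14, 2.55, 3.54 and 2.36). Krt79 had that order in D3 as well (2.49, 2.43, 2.66 and 2.06). The D0 mice did not follow it, since mouse 5 had the lowest adipocyte mean of D0 (0.995) and the highest Cidec (3.77). The part of fat cells in the Cidec difference was not tested.

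**Figure D2:**
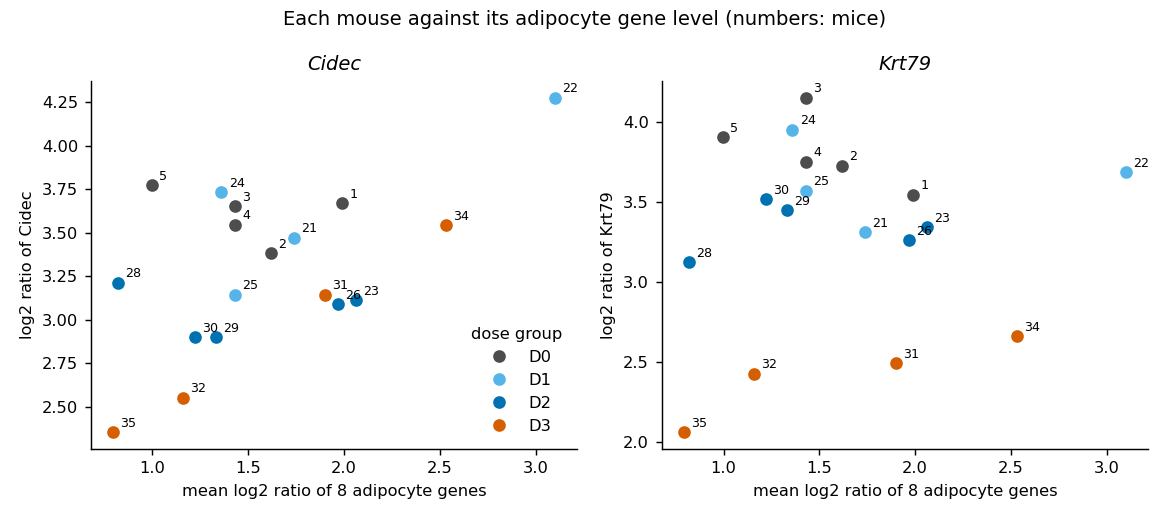
Log2 ratio of Cidec (left) and Krt79 (right) on the y axes against the mean log2 ratio of 8 adipocyte genes (x axis); each point is a mouse with its number, coloured by dose group. D1 mouse 22 (adipocyte mean 3.10) has the highest Cidec, and the D3 mice, from 0.793 to 2.53 on the x axis, lie below all other mice for Krt79 at every adipocyte level.

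RefSeq promoter windows of assembly GRCm38.p6, from 250 bases before to 50 bases after the gene start, were found for 9 of the 10 genes, and those of Krt79, Fabp1, Cidec and Marco are printed because the first 3 were the called genes and Marco had the largest difference in the other direction. Letters were searched on both strands for the core bound by the dioxin receptor AHR (GCGTG, in 32.4% of all windows), a nuclear receptor hexamer such as PPARG and its partner bind (AGGTCA, 16.3%), the ETS core bound by the macrophage factor PU.1 (GAGGAA, 28.3%) and a C/EBP motif (TTGCNNAA, 10.8%), and matches are in capitals, with no motif overlapping another. The windows lie at chr15:101940275-101940574, minus strand, for Krt79, chr6:71199629-71199928, plus strand, for Fabp1, chr6:113435711-113436010, minus strand, for the first of 2 Cidec windows, and chr1:120504975-120505274, minus strand, for Marco.
Krt79: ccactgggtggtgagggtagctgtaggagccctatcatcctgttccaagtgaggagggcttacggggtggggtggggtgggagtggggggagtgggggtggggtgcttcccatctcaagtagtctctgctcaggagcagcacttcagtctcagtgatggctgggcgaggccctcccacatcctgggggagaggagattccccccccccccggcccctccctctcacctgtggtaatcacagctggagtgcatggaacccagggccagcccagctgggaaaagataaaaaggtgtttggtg
Fabp1: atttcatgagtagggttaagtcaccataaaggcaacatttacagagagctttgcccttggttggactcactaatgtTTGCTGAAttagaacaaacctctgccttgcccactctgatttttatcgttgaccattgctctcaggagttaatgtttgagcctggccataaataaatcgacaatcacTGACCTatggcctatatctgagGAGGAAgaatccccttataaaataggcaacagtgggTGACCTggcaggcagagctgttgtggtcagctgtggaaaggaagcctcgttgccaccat
Cidec: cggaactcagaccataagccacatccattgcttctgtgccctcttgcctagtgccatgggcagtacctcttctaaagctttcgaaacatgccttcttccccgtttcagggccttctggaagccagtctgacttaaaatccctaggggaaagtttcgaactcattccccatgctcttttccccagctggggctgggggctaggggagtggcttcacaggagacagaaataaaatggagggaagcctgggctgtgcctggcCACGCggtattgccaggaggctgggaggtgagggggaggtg
Marco: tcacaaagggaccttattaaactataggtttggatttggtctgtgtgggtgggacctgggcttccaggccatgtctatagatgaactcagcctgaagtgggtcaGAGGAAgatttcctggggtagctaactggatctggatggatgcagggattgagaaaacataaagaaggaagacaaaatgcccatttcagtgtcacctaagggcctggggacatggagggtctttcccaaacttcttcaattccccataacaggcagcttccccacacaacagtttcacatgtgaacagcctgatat
The Krt79 window held 0 matches to the 4 motifs, while that of Fabp1 held 2 nuclear receptor hexamers, 1 PU.1 core and 1 C/EBP motif. The first Cidec window held 1 AHR core just after the gene start, the second held 1 AHR core and 1 C/EBP motif, and Marco held 1 PU.1 core. A match is a run of letters and not a shown binding site, and a window without a match says nothing of the factor.

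Pparg, the factor that directs the macrophage lipid programme, had a lower mean at each dose, apart from D1 under median centring (0.09). Its log2 ratio was 1.01, 0.91, 1.03, 1.22 and 1.31 in D0, 1.09, 0.87, 0.92 and 0.74 in D1, 0.82, 0.61, 0.98, 0.55 and 0.79 in D2, and 0.63, 0.61, 0.43 and 0.80 in D3. The D3 mice all lay below the D0 mice, and the groups between them overlapped both. The log2 difference was -0.19 ± 0.11 (SE) at D1, -0.34 ± 0.10 at D2 and -0.48 ± 0.11 at D3, short of 1.5-fold, and with median centring it was -0.13 at D2 and -0.30 at D3. Krt79, Fabp1 and Pparg were the 3 member probes whose D3 mice lay wholly below D0, against 7.17% of all probes.

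Genes that control the cell type gave no call in this unsorted lung tissue. Of 20 genes of GM-CSF, TGF-beta and PPARG control, 0 were called at any dose. The PPARG partner gene Rxra differed by -0.08 at D3 (limma adjusted p = 0.599; 0.17 and 0.201 by its dimmer probe), Csf2, which encodes GM-CSF, by -0.10 (limma adjusted p = 0.68) and Spi1, which encodes PU.1, by 0.06 (limma adjusted p = 0.84). Cebpb, a C/EBP factor of myeloid cells, passed the adjusted p at D3 without reaching 1.5-fold (-0.56 ± 0.11, SE; limma adjusted p = 0.00251). So did Tgfbr2, a TGF-beta receptor gene, in the other direction (0.41 ± 0.10, SE; limma adjusted p = 0.0105), while its dimmer probe gave -0.19 (limma adjusted p = 0.368). Among 22 genes of PPARG-linked lipid storage 1 fell at D3, Angptl4, an inhibitor of lipoprotein lipase (-0.88 ± 0.26, SE; limma adjusted p = 0.0335), and 0 rose.

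The receptors split in direction. Marco encodes a scavenger receptor that binds particles and bacteria. Its log2 ratio was 5.29, 4.54, 4.75, 4.87 and 4.30 in D0, 5.73, 5.42, 5.52 and 5.16 in D1, 3.45, 5.65, 5.67, 5.72 and 5.08 in D2, and 5.38, 5.85, 5.63 and 5.89 in D3. The D3 mice all lay above the D0 mice, which held for 1 of 12 member probes and 7.47% of all probes, and D1 and D2 were as high but for D1 mouse 25 and D2 mice 23 and 30. The log2 difference was 0.71 ± 0.34 (SE) at D1, 0.37 ± 0.32 at D2 and 0.94 ± 0.34 at D3, the last a 1.92-fold higher level that was not called.

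D2 mouse 23 decided how Marco read. Without it the differences were 0.71, 0.78 and 0.94 at D1, D2 and D3, and Marco was called higher at each dose, which brought the members' calls at D3 to 4. With mouse 23 counted in D1 instead, the difference of Marco was 0.31 at D1 and 0.78 at D2. With the slide as a block Marco was called at D3 (0.87), which made the members' calls there 3 lower and 1 higher. Mouse 23 was also the lowest mouse of D2 for Mrc1 (3.45), for Olr1 (0.36) and for the brighter Atp6v0d2 probe (1.54), but not for Fabp1 (3.75) or Krt79 (3.34). Within slides the D3 minus D0 difference of Marco was 0.70, 1.01 and 1.48, with mouse 35 in the last pair of values, and the reference channel differed by 0.22.

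Mrc1, the mannose receptor, and Itgax, the integrin CD11c, were lowest at D2. The D0 mice had Mrc1 log2 ratios of 3.83, 4.20, 4.24, 3.89 and 4.50, the D1 mice 3.90, 4.10, 4.31 and 3.78, the D2 mice 3.45, 3.54, 3.82, 4.14 and 3.71, and the D3 mice 3.90, 3.55, 3.79 and 4.09. Every dose overlapped D0, and the differences were -0.11 ± 0.16 (SE), -0.40 ± 0.15 and -0.30 ± 0.16. Itgax had 3.05, 3.10, 3.17, 3.11 and 3.52 in D0, 3.10, 2.86, 3.05 and 2.71 in D1, 2.83, 2.66, 2.84, 2.85 and 2.62 in D2, and 2.89, 2.87, 3.02 and 3.26 in D3. Its 5 D2 mice lay in a narrow band below all D0 mice. The lowest D3 mouse (2.87) was close to the highest D2 mouse (2.85), and the step from D2 to D3 was not called. The differences were -0.26 ± 0.11 (SE) at D1, -0.43 ± 0.10 at D2 and -0.18 ± 0.11 at D3. Olr1, a receptor for oxidized lipoprotein, was dim (mean red signal 132 in D0) and ran from 0.57 to 1.01 in D0, 0.65 to 1.24 in D1, 0.36 to 0.96 in D2 and 0.94 to 1.25 in D3. All of these ranges overlapped, with differences of 0.13 ± 0.13 (SE), -0.02 ± 0.13 and 0.28 ± 0.13.

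In 19 tested genes of other scavenger and phagocytic receptors, 1 rose at D3, the class A scavenger receptor gene Msr1 (0.62 ± 0.10, SE; limma adjusted p = 0.000612; 0.35 and 0.0948 by its dimmer probe), and 0 fell. At D2, 1 of the 19 fell, Tlr2 (-0.60, limma adjusted p = 0.0231), and 0 rose. On the adjusted p alone, 3 of the 19 were higher at D3, Msr1 among them, and 1 was lower. Scarb2 (0.47, limma adjusted p = 0.00487) and Scarb1 (0.34, limma adjusted p = 0.0123) were higher, short of 1.5-fold. The dimmer probe of Scarb1 gave 0.25 (limma adjusted p = 0.307). Itgam was lower by its brightest probe (-0.36, limma adjusted p = 0.0164) and higher by a dimmer one (0.55, limma adjusted p = 0.0299). The list median was -0.12 at D2 and -0.05 at D3.

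Chil3, a chitinase-like lectin secreted in quantity by mouse lung macrophages, spread widely within groups. Its log2 ratio was 4.18, 3.72, 3.74, 4.87 and 4.33 in D0, 4.80, 3.33, 3.79 and 3.01 in D1, 3.33, 2.48, 3.54, 2.77 and 1.77 in D2, and 2.22, 4.07, 3.06 and 3.18 in D3. All D2 mice lay below all D0 mice, and 3 of 4 D3 mice did. The difference was -0.44 ± 0.40 (SE) at D1, -1.39 ± 0.37 at D2 and -1.03 ± 0.40 at D3, of which none was called. It became called at D2 without D1 mouse 21 (-1.39), D2 mouse 28 (-1.58), or D3 mouse 31 or 32 (-1.39), and with mouse 23 moved to D1 (-1.53), and at D3 without D3 mouse 32 (-1.35). Chil3, Itgax, Krt79 and the brighter Cidec probe were the 4 member probes whose D2 mice lay wholly below D0, against 1.60% of all probes.

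Atp6v0d2 encodes a subunit of the proton pump that acidifies lysosomes, in a form found in osteoclasts and alveolar macrophages. Its brighter probe had 2.19, 2.33, 2.16, 2.14 and 2.80 in D0, 2.79, 2.46, 2.45 and 1.79 in D1, 1.54, 1.85, 2.46, 2.07 and 1.69 in D2, and 2.53, 2.37, 2.15 and 2.63 in D3. Of the D2 mice, 4 of 5 lay below D0, and no D3 mouse did. The differences were 0.05 ± 0.19 (SE), -0.40 ± 0.18 and 0.10 ± 0.19, and the dimmer probe gave -0.06 ± 0.15, -0.41 ± 0.14 and -0.02 ± 0.15. None of 22 tested subunits of the same pump was called at any dose: Atp6v0d1, the ubiquitous form of the same subunit, differed by 0.32 at D3 (limma adjusted p = 0.0887). The median of the pump genes was 0.01 at D2, where Atp6v0d2 was low on both probes.

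**Figure D3:**
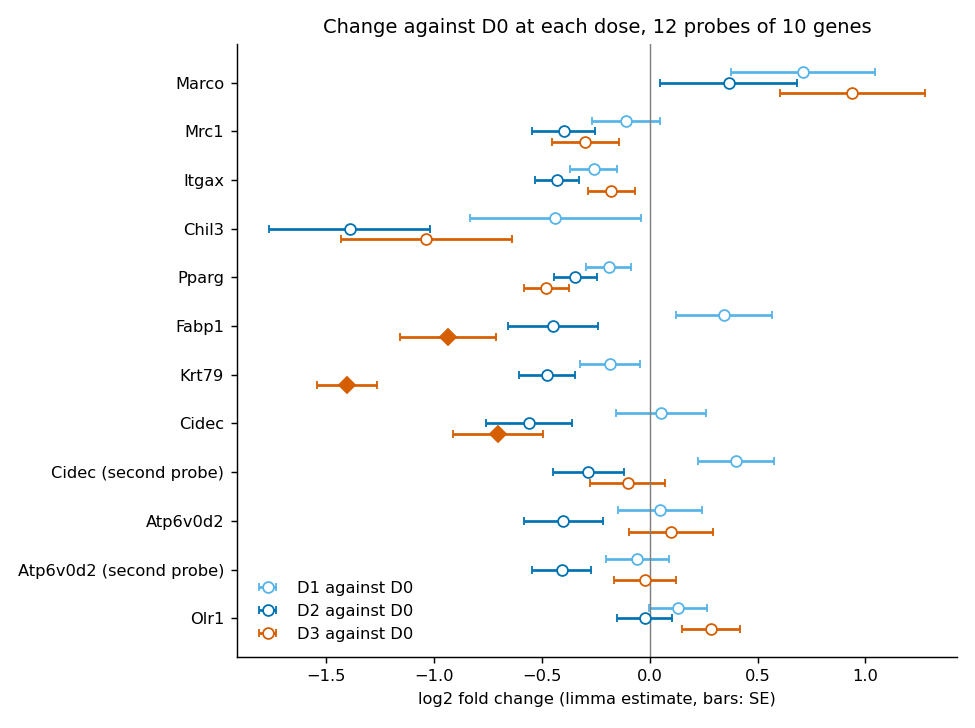
Log2 fold change against D0 (x axis, limma estimate with SE bars) of each of the 12 probes (y axis) at D1, D2 and D3; filled diamonds mark called values and open circles values not called. Krt79 (-1.40), Fabp1 (-0.94) and the first Cidec probe (-0.70) are the called points, all at D3, and Marco is above 0 at each dose.

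The dose at which a member was lowest divided the genes. For Krt79, Fabp1, Pparg and the brighter Cidec probe the D3 mean was the lowest of the groups, though for Cidec not without D3 mouse 35 (D3 minus D2 of 0.04). For Mrc1, Itgax, Chil3, Atp6v0d2 and Olr1 it was the D2 mean (for Olr1 by 0.02 only, and not without D2 mouse 23, at 0.07), and for Marco that of D0. From D2 to D3 the differences were -0.93 ± 0.14 (SE) for Krt79, -0.49 ± 0.22 for Fabp1, -0.14 ± 0.21 for Cidec and -0.13 ± 0.11 for Pparg. They were 0.25 ± 0.11 for Itgax, 0.36 ± 0.40 for Chil3, 0.50 ± 0.19 for Atp6v0d2, 0.10 ± 0.16 for Mrc1, 0.31 ± 0.13 for Olr1 and 0.57 ± 0.34 for Marco, and of all these Krt79 alone was called. Over the 10 genes the median step was 0.18.

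Among other alveolar macrophage genes, more means were below D0 at D2 than at D3, and the difference between these counts was not tested. Of 27 genes, 22 means were below D0 at D2 and the list median was -0.21, beside 15 below D0 and a median of -0.02 at D3. Over all probes, 51.1% were below D0 at D2 and 50.5% at D3. Between D3 and D2, 7 of the 27 were lower at D3 and 0 were called. At D2 Ear1, an eosinophil-associated ribonuclease gene typical of these cells (-1.52, limma adjusted p = 0.0162), and Siglecf, the lectin that marks them (-1.05, limma adjusted p = 0.036), fell. Bhlhe40, a transcription factor gene of self-renewing macrophages, rose at D2 (0.59, limma adjusted p = 0.0127). At D3 1 gene of the list fell, F7, which encodes coagulation factor VII (-0.59 ± 0.17, SE; limma adjusted p = 0.027), and 1 rose, Ctsd, which encodes the lysosomal protease cathepsin D (0.60 ± 0.18, SE; limma adjusted p = 0.0369). The dimmer probes gave -0.40 for Siglecf at D2 (limma adjusted p = 0.092) and 0.26 for Ctsd at D3 (limma adjusted p = 0.325), neither called, and -0.62 for F7 at D3 (limma adjusted p = 0.0101). Per mouse, the mean log2 ratio over the 27 genes was 1.67 to 1.92 in D0, 1.58 to 1.83 in D1, 1.29 to 1.70 in D2 and 1.63 to 1.78 in D3. The D3 mice thus lay near the D0 mice in this mean, which is taken over genes that went both ways. Ear1 (-0.85, limma adjusted p = 0.116) and Ear2 (-0.69, limma adjusted p = 0.0624) were below D0 at D3 without a call. So was Siglecf (-0.64, limma adjusted p = 0.135), whose dimmer probe passed the adjusted p short of 1.5-fold (-0.50, limma adjusted p = 0.0158). Ccl6 (0.76, limma adjusted p = 0.198) and Fabp4 (0.35, limma adjusted p = 0.722) were above D0.

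Among the other keratins there was no call in the direction of Krt79. Of 12 keratin genes tested, 0 fell at D3 and 1 rose, Krt15, a basal cell keratin (0.89 ± 0.25, SE; limma adjusted p = 0.0251). The simple epithelial keratin gene Krt18 differed by -0.34 (limma adjusted p = 0.0158), Krt5 by -0.22 (limma adjusted p = 0.458) and Krt14 by -0.11 (limma adjusted p = 0.444). Krt80 (0.31, limma adjusted p = 0.0375) and the epidermal keratin gene Krt10 (0.27, limma adjusted p = 0.0369) passed the adjusted p in the other direction, short of 1.5-fold. A further 7 keratins, Krt1, Krt4, Krt6a, Krt17, Krt20, Krt77 and Krt78, did not pass the filter on dim signals. Skin and sebaceous gland genes gave 0 calls at D3 among 6 tested.

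Genes of other myeloid cells were called as well, some of them from the lowest dose on. Among 9 tested neutrophil genes 5 rose at D3 and 0 fell: S100a8 (1.77 ± 0.33, SE; limma adjusted p = 0.00178) and S100a9 (0.86 ± 0.25, SE; limma adjusted p = 0.0286), which encode the subunits of calprotectin, the collagenase gene Mmp8 (1.49 ± 0.16, SE; limma adjusted p = 6.7e-06), the chemokine receptor gene Cxcr2 (0.92 ± 0.22, SE; limma adjusted p = 0.0108) and the gelatinase gene Mmp9 (0.68 ± 0.18, SE; limma adjusted p = 0.0178). Csf3r, the receptor gene for the neutrophil growth factor G-CSF, passed the adjusted p in the other direction without reaching 1.5-fold (-0.46 ± 0.10, SE; limma adjusted p = 0.00655). Mmp8 rose at D1 (0.98, limma adjusted p = 0.00187) and at D2 (0.97, limma adjusted p = 0.00111) too, and the list median was 0.77, 0.55 and 0.86 at D1, D2 and D3. The mean of the 9 per mouse was 1.38 to 2.17 in D0, 2.03 to 2.50 in D1, 1.97 to 2.62 in D2 and 1.95 to 3.28 in D3. Among 17 genes of monocytes and interstitial macrophages 2 rose and 0 fell at D3, Lyve1 (1.31 ± 0.21, SE; limma adjusted p = 0.000623), which is also a gene of lymphatic endothelium, and the platelet factor gene Pf4 (0.73 ± 0.23, SE; limma adjusted p = 0.0386). Lyve1 rose at D1 (1.20, limma adjusted p = 0.00332) and at D2 (0.85, limma adjusted p = 0.0287) as well. Ccr2, a defining receptor of monocytes, differed by 0.30 (limma adjusted p = 0.233).

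Among 10 tested dendritic cell genes 1 fell at D3, the C-type lectin gene Cd209a (-0.82 ± 0.15, SE; limma adjusted p = 0.00141), and 0 rose. Of the 10, 6 means were below D0 at D3, and the list median was -0.07. Zbtb46 passed the adjusted p in the other direction at D3, short of 1.5-fold (0.24, limma adjusted p = 0.0309). Its dimmer probe did so too (0.36, limma adjusted p = 0.0142). Clec9a, of cross-presenting dendritic cells, fell at D1 (-0.78, limma adjusted p = 0.0199) and differed by -0.40 at D3 (limma adjusted p = 0.175). The probes of Siglech, a gene of plasmacytoid dendritic cells, differed in size: the brighter, used in the counts, passed the adjusted p short of 1.5-fold at D1 (-0.44, limma adjusted p = 0.021) and D3 (-0.52, limma adjusted p = 0.00342). The dimmer fell at D1 (-0.95, limma adjusted p = 0.00259), D2 (-1.38, limma adjusted p = 4.03e-05) and D3 (-1.33, limma adjusted p = 4.1e-05). Of 8 tested genes of alternative activation 1 rose, the resistin-like gene Retnlg (1.30 ± 0.30, SE; limma adjusted p = 0.00843), which neutrophils also express, and 0 fell. Mgl2 of the same list passed the adjusted p at D3 in the other direction, short of 1.5-fold (-0.50, limma adjusted p = 0.0368). The part of these other myeloid cells in the differences of the 10 genes was not tested.

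**Figure D4:**
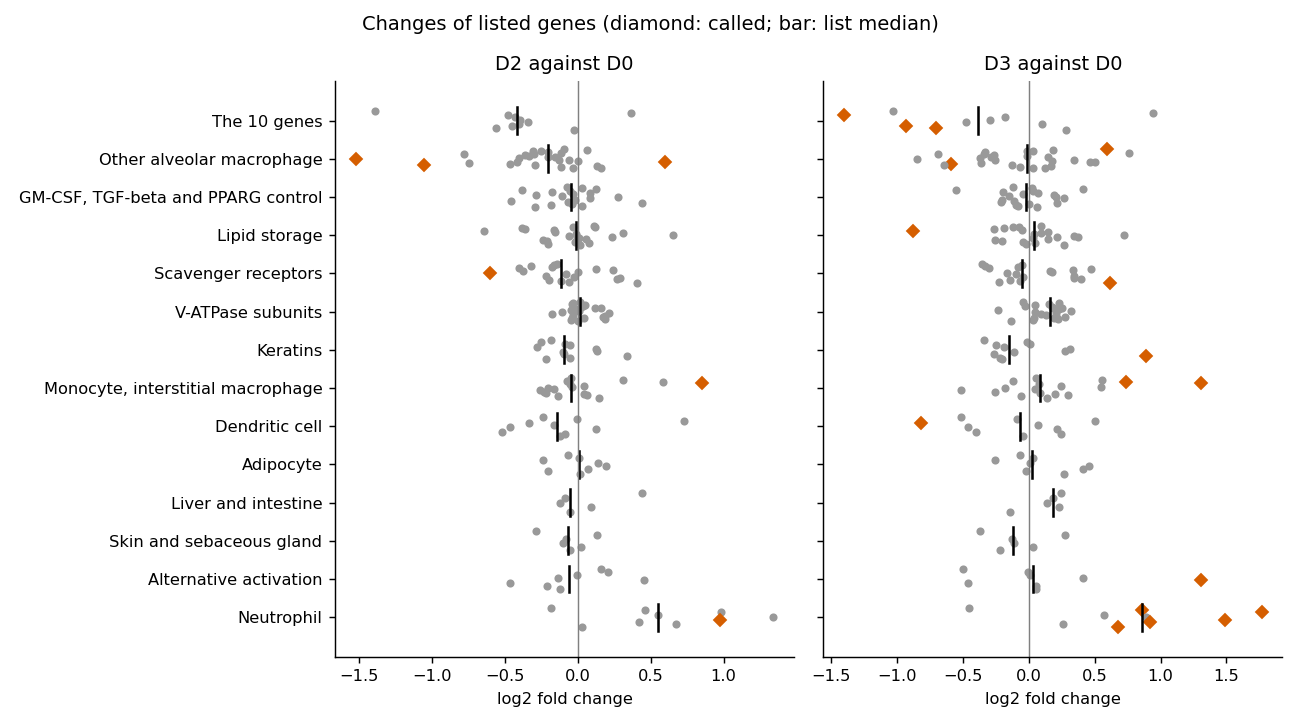
Log2 fold change against D0 (x axes) of each tested gene in 14 groups of genes (y axis) at D2 (left) and D3 (right); points are genes, orange diamonds are called genes and black bars are list medians. The median of the 10 genes lies below 0 at both doses (-0.42 and -0.39), that of the other alveolar macrophage genes at D2 (-0.21) but near 0 at D3 (-0.02), and that of the neutrophil genes above 0 at both (0.55 and 0.86).

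Variation between mice of the same dose was looked at apart from dose. Each mouse was expressed as its deviation from its group's mean, and Pearson r was taken over the 18 mice for each pair of genes by the brightest probe. The values describe these mice, which share slides and normalization, and carry no test. Over the 45 pairs the median r was 0.11, with 28 above 0. Atp6v0d2 was the gene most often in step with the rest, with a median r of 0.38 and 8 of 9 pairs above 0. Its closest partners were Itgax (0.67), Pparg (0.59), Mrc1 (0.59) and Olr1 (0.58), and Mrc1 and Itgax had an r of 0.65 with each other. Marco went with Olr1 (0.65), a value that includes D2 mouse 23, whose dose is in doubt. That mouse was the lowest of D2 for both genes (3.45 and 0.36).

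Krt79 stood at the other end, with a median r of -0.24 and 2 of 9 pairs above 0. Its values within dose groups were 0.42 with Cidec and 0.31 with Mrc1, and -0.40 with Chil3, -0.35 with Pparg and -0.09 with Fabp1. Without removal of the group means the r of Krt79 was 0.58 with Pparg and 0.66 with Fabp1, so those values were positive with the dose group means kept and below 0 with them removed. Chil3 and Pparg kept an r of 0.51 within dose groups.

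**Figure D5:**
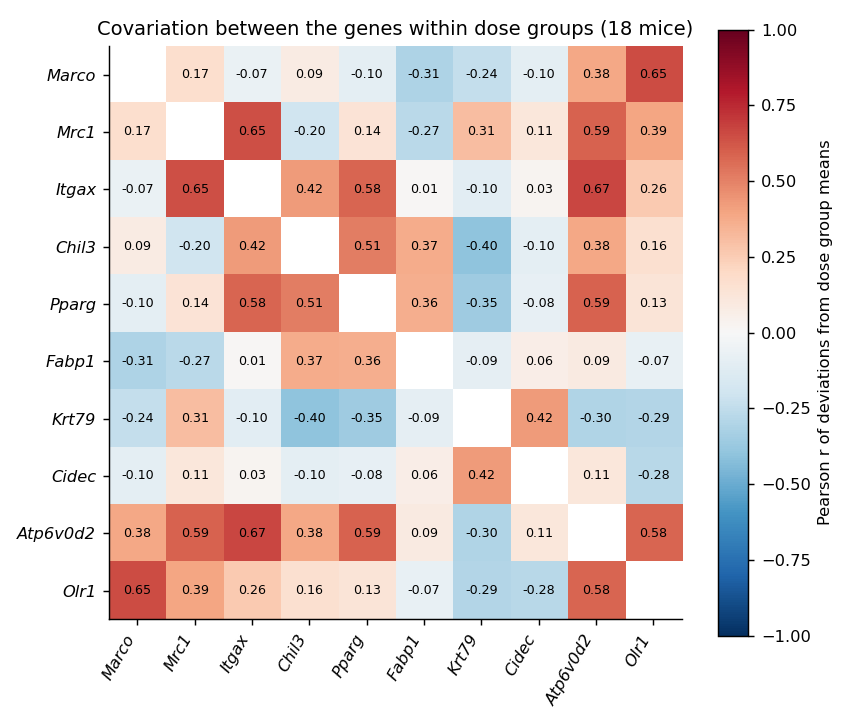
Pearson r (colour and printed value) between each pair of the 10 genes, over the deviations of 18 mice from their dose group means. The highest value is that of Itgax with Atp6v0d2 (0.67), both genes are also high with Mrc1 and Pparg, whose own value is 0.14, and Krt79 is negative with 7 of the other 9 genes.

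Genes outside the 10 were ranked by their likeness to Krt79 over the 18 mice, as a description without a test. The highest Pearson r among 19205 named probes were those of Gpihbp1, the capillary anchor of lipoprotein lipase (0.90), Rasa4 (0.86), Cd209a (0.86), Lmo4 (0.86), Irs2 (0.86), the endothelin receptor gene Ednrb (0.86), Wdr33 (0.85) and Thbs3 (0.85). Gpihbp1 differed from D0 by -0.67, -0.99 and -2.45 on the log2 scale at D1, D2 and D3, and like Krt79 took its largest step from D2 to D3 (-1.46, against -0.93). Within dose groups other genes were among the nearest: A630012P03Rik (0.81), Ip6k1 (0.81), Tpt1 (0.80), Rpl10 (0.80), Kdm3a (0.79), Nek5 (0.79) and Fam107a (0.79), of which none passed the adjusted p at D3.

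The mean of the 10 genes, each scaled to unit spread, was ranked against other genes in the same way. Over all mice the nearest were Clec4b1 (0.93), Ear10 (0.92), Ear1 (0.88), Scimp (0.88), Fpr1 (0.86), B3gnt7 (0.85), Rnase2a (0.84) and Il18 (0.84). Ear10 and Clec4b1 were again among the nearest within dose groups (0.86 and 0.79), after Ms4a8a (0.90), Prickle2 (0.88) and Cyb561a3 (0.86) and beside Tpd52l2 (0.85), Cd2 (0.83) and Spata5 (0.83). Ear10 had log2 differences of -0.37, -1.52 and -0.99 at D1, D2 and D3, beside -0.44, -1.39 and -1.03 for Chil3.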

How the data were processed

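Lung RNA of 18 mice was hybridized to 19 Agilent 2-colour arrays against a common reference, with no dye swap. In the deposited scanner files each spot has a median intensity per channel, which the authors had not normalized, and the deposited series table of log2 ratios normalized by the authors served as an alternative. Following the study's methods, no background was subtracted, and ratios were loess-normalized within arrays (span 0.3) in limma 3.58.1 and R 4.3.3. Control and outlier spots were left out, spots of a probe averaged, and the 30999 probes well above background in red in at least 4 mice of 1 group tested. The 4 groups were fitted together with lmFit and eBayes, with Benjamini-Hochberg adjustment over all probes; limma stood in for the study's MAANOVA. The number of arrays limits the precision. Symbols came from 21465 of 22765 RefSeq identifiers matched to a RefSeq table of GRCm38.p6. Lists used each gene's brightest probe; of 37 listed genes with more than 1 tested probe, calls against D0 differed between probes in 5 (Camp, Ctsd, Msr1, Siglecf and Siglech). Fits were tested on simulated data. The genes and the 13 other lists were chosen with earlier results of these data known. From each list the text names up to 4 genes called at D3 with the largest change or up to 3 defining markers, and from the ranking by r the nearest 8 (1 of these and 1 marker are not reported here); genes called at D2 and Rxra, Spi1, Csf2, Cebpb, Tgfbr2, Csf3r, Clec9a, Siglech, Mmp9 (the smallest of 5 neutrophil calls), Atp6v0d1, Krt18, Krt80, Krt10, Krt5, Krt14 and Ccr2 were picked after their values were seen. So were Ear2, Fabp4, Ccl6, Zbtb46, Mgl2, Scarb1, Scarb2 and Itgam. Alternatives changed background correction, signal column, normalization, channel, dim-probe filter, slide block, the group of mouse 23, the arrays of mouse 35, the fold threshold and each mouse left out.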

Additional observations from a re-analysis of the deposited data

Results flagged for a closer look

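Of 48 groups of mice examined (12 probes in 4 dose groups), 3 held a mouse set apart from its group by a gap that was most of the group's range, where chance gives about 1 in 20. Marco in D2 mouse 23 was 3.452, under the other D2 mice at 5.08 to 5.72. Itgax in D0 mouse 5 was 3.523, above the other D0 mice at 3.05 to 3.17. The brighter probe of Atp6v0d2 in the same D0 mouse 5 was 2.798, above the others at 2.14 to 2.33. The cause was not tested in any of them.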

How the results depend on the processing

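Over 29 alternatives and 56 results, 1556 of 1624 values kept their side of the threshold and stayed near the reported value, and 0 of the called values reversed. The sign turned in 26 values, over 11 results, where the reported difference was not called, among them the brighter Cidec probe at D1 with processed signals (-0.64) and without D1 mouse 22 (-0.15). Member probes called at D3, 3 as reported, were 1 with the scanner software's processed signals and 0 with median centring; at D2, 0 as reported, 1 with the red channel alone (Krt79, -0.63), with mouse 23 in D1 (Chil3, -1.53) and on the adjusted p alone; and from D2 to D3, 1 as reported, 0 with median centring. Fabp1 at D3 lost its call with processed signals (-0.61) and median centring (-0.86), and Cidec also with normexp correction (-0.57). Calls in the lists at D1 (3) were 0 with median centring, 5 with mouse 23 in D1 and 8 on the adjusted p alone; at D2 (6) they were 3, 1 and 3 with processed signals, median centring and mouse 23 in D1; at D3 (14) they were 9, 2 and 33 with processed signals, median centring and the adjusted p alone; from D2 to D3 (0) they were 1 with the slide block. Leaving out each mouse gave 0 to 1 members at D1, 0 to 1 at D2, 2 to 4 at D3 and 1 to 1 from D2 to D3, and 2 to 5, 2 to 7, 10 to 16 and 0 to 3 list calls. Median centring, which omits the intensity-dependent step, raised the median SE over probes from 0.103 to 0.213 and moved the median of all probes to 0.17 at D1 and 0.12 at D2, where Krt79 and Pparg differed from D0 by 0.09 each at D1. The cause of the other changes was not tested. The green signal of the brighter Cidec probe and of Olr1 was well above background in 0 mice, that of Fabp1 and Mrc1 in 1 and that of the dimmer Cidec probe in 5, so their ratios rest on a reference near background. No pairing by mouse was possible because the mouse numbers are not shared between groups, and the slide entered only as a block among the alternatives.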
